A study of Mus musculus with 4 samples.

Results

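The collagen genes of the embryonic mouse cerebral cortex were described in wild-type embryos and in embryos with a knockout of Cd93. A gene was taken as a collagen gene where it was protein-coding and its symbol was Col, a type number, the letter a and a chain number. The deposited tables listed 43 such genes among 23328 genes in all, 41 of them among the 20385 genes listed in both tables. Of the 41, 36 had enough counts to enter the test, out of 16371 genes tested. By type number, 9 of the 43 were fibrillar collagens (types 1, 2, 3, 5 and 11), 6 were type 4 collagens of basement membranes, and 28 were of other types. All 9 fibrillar genes, 5 of the 6 type 4 genes and 22 of the 28 others were tested.

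RNA came from the cerebral cortex of C57BL/6 embryos at embryonic day 16 (E16), in 2 wild-type libraries (WT 1 and WT 4) and 2 libraries of the Cd93 knockout (KO 5 and KO 6). CD93 is a transmembrane lectin known mainly from endothelial cells, and the title of the study links it to the making of astrocytes. The labels name no other allele or agent in either group, and they do not say which part of Cd93 is missing, in which cells, or whether each library is a separate embryo, so a p-value here measures the spread between these libraries, which may be technical. The design text speaks of triplicates, and 4 libraries were analysed here. The authors deposited 2 tables, each with 1 library per genotype: table A with KO 6 and WT 1, and table B with KO 5 and WT 4.

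Collagen chains wind around each other into rope-like trimers, and this needs a glycine at the first place of each triplet of residues. Fibrillar collagens of types 1, 3 and 5 assemble into the fibrils of connective tissue, and in the head of the embryo they are made chiefly by the fibroblasts of the meninges and around vessels. Type 4 collagen instead forms a sheet-like network in the basement membranes of vessels and of the pial surface, to which the end-feet of radial glia attach. Type 6 collagen forms beaded filaments at the border of basement membrane and fibrillar matrix.

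The 3 classes differ in the coding sequence itself, which was read from GENCODE release M21 (GRCm38). The longest uninterrupted run of glycine-led triplets held 337 to 344 triplets in the 9 fibrillar genes, with a median of 338. In the 6 type 4 genes it held 39 to 66 triplets, and the repeat was broken into 22 to 27 runs of at least 5 triplets. Among the 28 other genes the longest run ranged from 23 to 217 triplets. The 2 longest of these belonged to Col24a1 (216) and Col27a1 (217), which the type numbers place among the other collagens although both are known as minor fibrillar collagens. Of the inner coding exons, 46.9% of 510 were exactly 54 bases long in fibrillar genes, 4.23% of 284 in type 4 genes and 19.4% of 1122 in the others.

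**Figure D1:**
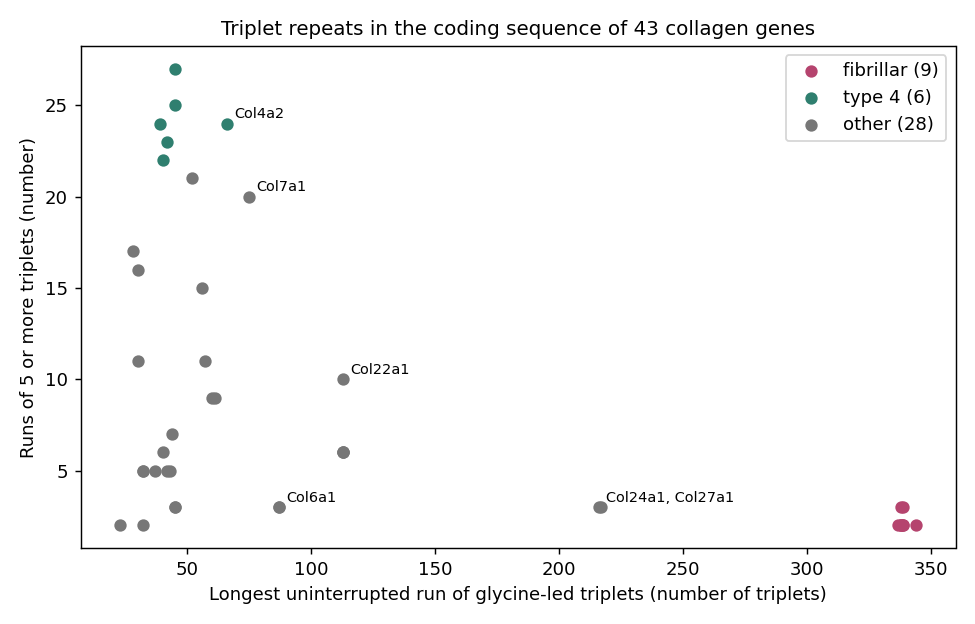
Each point is 1 of the 43 collagen genes; the horizontal axis gives the longest uninterrupted run of glycine-led triplets in its coding sequence and the vertical axis the number of runs of at least 5 triplets. The fibrillar genes lie together at 337 to 344 triplets, and the type 4 genes at 39 to 66 triplets with 22 to 27 runs.

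The unit of the fibrillar helix can be read in one 54-base exon each of the 3 fibrillar genes with the most negative log2 fold changes, shown with a 54-base exon of Col4a1 for comparison. Sequences run 5′ to 3′ on the strand of the gene. Capitals mark the glycine codon that leads each triplet, 6 in each exon, as the exons were chosen to have. A glycine codon elsewhere in a triplet, as in the last triplet of Col1a1, is in small letters. Coding exon 8 of Col1a1 lies at chr11:94939904-94939957 (plus strand), coding exon 8 of Col1a2 at chr6:4515481-4515534 (plus), coding exon 6 of Col3a1 at chr1:45325360-45325413 (plus) and coding exon 7 of Col4a1 at chr8:11245211-11245264 (minus), all in GRCm38.
Col1a1: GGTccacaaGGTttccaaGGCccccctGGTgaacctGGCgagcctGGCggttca
Col1a2: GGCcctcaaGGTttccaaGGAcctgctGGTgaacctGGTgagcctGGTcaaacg
Col3a1: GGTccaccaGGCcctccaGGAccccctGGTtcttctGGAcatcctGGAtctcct
Col4a1: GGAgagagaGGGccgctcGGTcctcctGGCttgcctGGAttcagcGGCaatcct

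The libraries held 16318317 (KO 6) to 17586157 (WT 1) counts over the listed genes, so that 3 counts, the floor for a gene without counts, stood for 0.169 to 0.185 CPM, the unit of counts scaled to a common library total. Intervals and floors cover counting error only. Cd93 itself (ENSMUSG00000027435), on the minus strand of chromosome 2 from 148436640 to 148443563, had 680 (WT 1), 409 (WT 4), 111 (KO 5) and 99 (KO 6) counts, in the order of the labels. Its log2 fold change was -2.32 (SE 0.25, Benjamini-Hochberg adjusted p = 0.211 in edgeR's quasi-likelihood test). With the table as a block it was called lower by edgeR (adjusted p = 0.000971), and also by DESeq2 and by edgeR without WT 1 or without WT 4, and over all alternatives the adjusted p ranged from 3.91e-12 in DESeq2 to 0.99984 in limma-voom. All 10 marker genes of the cortex were present in each library, with a summed level of 5842 to 6844 CPM. WT 1 stood apart in marker genes of meningeal fibroblasts, endothelial cells and pericytes, and WT 4 in those of epidermis, with values given beside the collagens below.

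Read against gene length, Col4a1, Col4a2 and Col9a3 led the family in this tissue, in an order that depended on the library and the length used. Per kb of exon, the mean level over the 4 libraries was 17.9 CPM for Col4a1 and 15.5 CPM for Col4a2, the 2 chains of the type 4 trimer found in nearly all basement membranes. Col9a3, a chain of the fibril-associated collagen of cartilage and the eye, followed with 11.7 CPM per kb. Then came Col2a1, the main fibrillar collagen of cartilage, with 5.23 CPM per kb, and Col3a1 with 4.88 CPM per kb. The same 5 genes led when coding length was used in place of exon length. Per kb of coding sequence Col9a3 was above Col4a1 in WT 4 (21.9 against 19.3 CPM), KO 5 (20.2 against 19.7) and KO 6 (25.4 against 19.6), and below it in WT 1 (20.8 against 45.9). The choice of length mattered for Col26a1, a minor collagen, which stood at rank 17 per kb of exon and rank 6 per kb of coding sequence.

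The order depended on the library for the connective tissue collagens. Col3a1 stood at 16.02 (WT 1), 1.69 (WT 4), 0.692 (KO 5) and 1.10 (KO 6) CPM per kb of exon, whereas Col9a3 stood at 11.02, 11.6, 10.7 and 13.5 CPM per kb in the same order of libraries. Col3a1 was therefore above Col9a3 in WT 1 alone. Col4a1 was at 31.5 CPM per kb in WT 1 and at 13.3 to 13.5 in the other libraries.

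**Figure D2:**
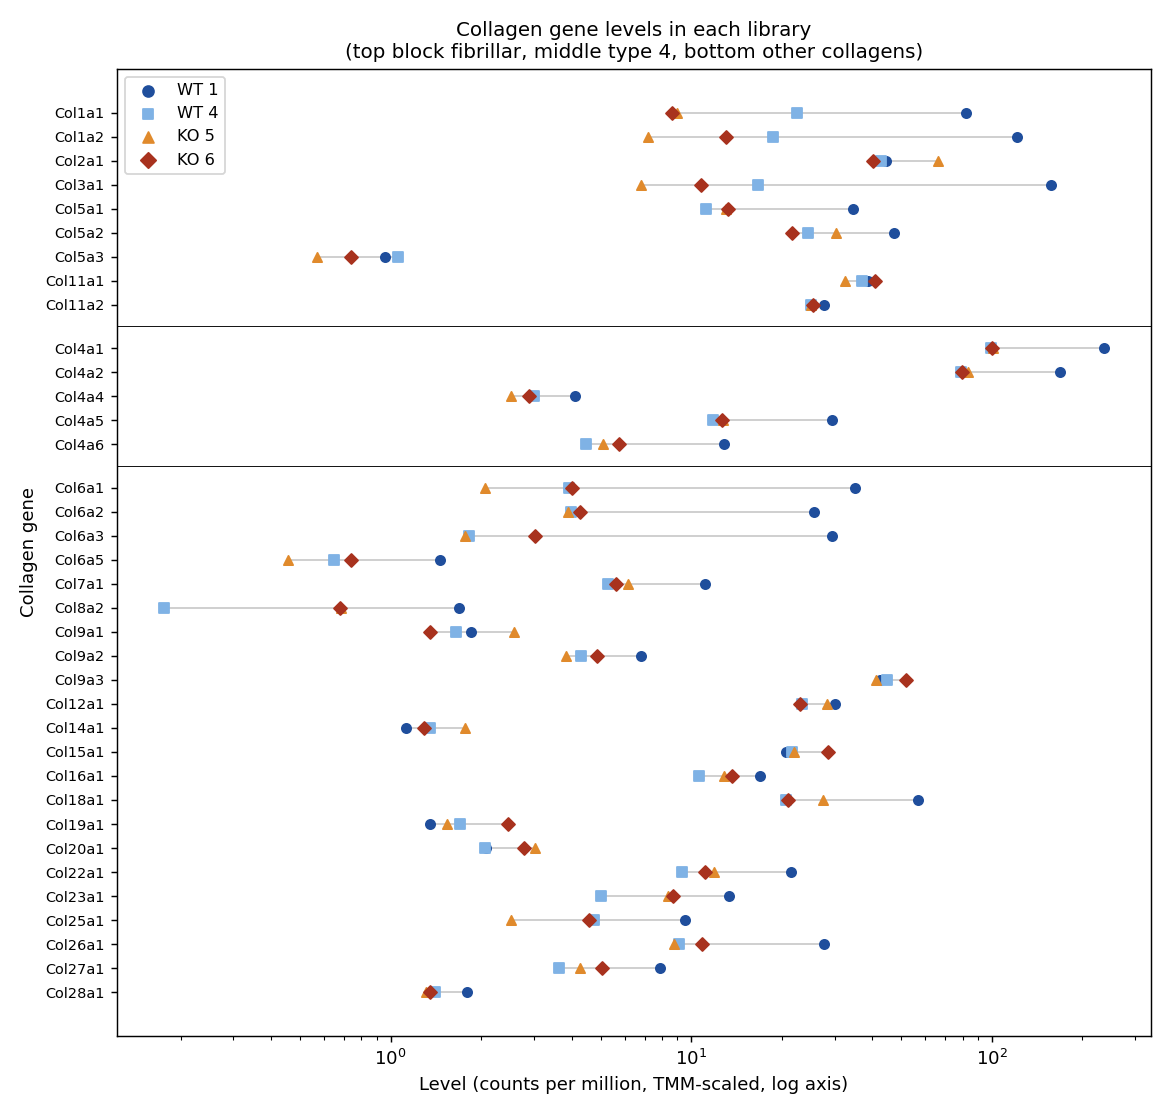
Level of each of the 36 tested collagen genes (rows) in CPM on a log axis, 1 symbol per library; grey lines span the 4 libraries. WT 1 lies to the right for types 1, 3, 4 and 6, and the 4 symbols lie close together for Col11a2 and Col9a3.

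No collagen gene passed edgeR's quasi-likelihood test for KO against WT in all 4 libraries (adjusted p = 0.9999 for each of the 36). Over all 16371 genes 2 were called, or 0.0122%. Unadjusted p-values under 0.05 were found for 6 collagen genes in edgeR, against 317 of all genes, and the 6 were Col1a1, Col1a2, Col3a1, Col6a1, Col6a2 and Col6a3, each with a lower mean in KO. DESeq2 called none of the 36 (5 with an unadjusted p under 0.05), and neither did limma-voom (1 with an unadjusted p under 0.05).

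The mean was lower in KO for 29 of the 36 genes and higher for 7, and the median log2 fold change of KO over WT was -0.46, beside -0.0028 over all tested genes. By class the median was -0.62 for fibrillar collagens (8 of 9 lower), -0.68 for type 4 collagens (5 of 5 lower) and -0.33 for the others (16 of 22 lower). These medians rested on WT 1. Without that library they were -0.01, 0.05 and 0.18, and without WT 4 they were -0.85, -1.21 and -0.70.

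A stricter reading asks for both KO libraries to lie below both WT libraries. That held for 7 of the 36 genes (Col1a1, Col1a2, Col3a1, Col5a3, Col4a4, Col25a1 and Col28a1), where 11.9% of all tested genes showed it. The reverse, both KO libraries above both WT libraries, held for 2 (Col15a1 and Col20a1), where 11.5% of all genes showed it. Fibrillar genes made up 4 of the 7. Set against WT 4 alone, a comparison chosen after seeing the data, both KO libraries were lower in the same 7 genes and higher in 14, next to 28.4% and 28.0% of all tested genes.

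Among the fibrillar collagens, types 1 and 3 set themselves apart. Col1a1 (ENSMUSG00000001506, chromosome 11, 94936224 to 94953042, plus strand), the main chain of type 1 collagen, had 1454 (WT 1), 384 (WT 4), 157 (KO 5) and 140 (KO 6) counts. Its partner chain Col1a2 (ENSMUSG00000029661, chromosome 6, 4504814 to 4541544, plus strand) had 2149, 319, 126 and 211 counts in the same order. Col3a1 (ENSMUSG00000026043, chromosome 1, 45311538 to 45349706, plus strand), which forms type 3 collagen and is known as a ligand of the receptor Adgrg1 (GPR56) on cortical progenitors, had 2795, 283, 119 and 175.

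In all 3 genes the KO libraries lay below the WT libraries without overlap, and WT 1 lay far above WT 4. The mean level of Col1a1 was 52.2 ± 41.9 CPM (SD, n = 2) in WT, while KO had 8.80 ± 0.236 CPM (SD, n = 2), which makes a log2 fold change of -2.57 (SE 0.56). For Col1a2 the log2 fold change was -2.79 (SE 0.81), and for Col3a1 it was -3.31 (SE 0.95). None passed the test in all 4 libraries, and the spread between the WT libraries of Col3a1 (SD 99.4 CPM) was larger than their mean of 86.9 CPM.

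Compared within each deposited table, the 3 genes were lower in KO both times, and by different amounts. In table A the log2 ratio of KO 6 over WT 1 was -3.23 for Col1a1, -3.21 for Col1a2 and -3.85 for Col3a1. In table B the ratio of KO 5 over WT 4 was -1.32, -1.37 and -1.28. When edgeR's model took the table as a block, all 3 were called lower, at adjusted p = 0.0220 for Col1a1, 0.0121 for Col1a2 and 0.0373 for Col3a1. They were the only collagen genes called in that fit, 3 of 36, while 0.165% of all tested genes were called lower.

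Leaving out a WT library changed these calls. Without WT 1, Col1a1 was the 1 collagen gene called lower (log2 fold change -1.36, adjusted p = 0.00254 in edgeR), with 0.206% of all genes called lower, and Col1a2 and Col3a1 had log2 fold changes of -0.89 and -0.92 with adjusted p = 0.613 and 0.439. Without WT 4, 16 collagen genes were called lower, beside 1.52% of all genes. They were Col1a1, Col1a2, Col3a1, Col5a1, Col5a2, Col4a1, Col4a2, Col4a5, Col4a6, Col6a1, Col6a2, Col6a3, Col18a1, Col22a1, Col25a1 and Col26a1. Over all alternatives fitted, the adjusted p ranged from 1.70e-12 to 0.99998 for Col1a1, from 1.59e-12 to 0.99998 for Col1a2 and from 5.21e-15 to 0.99998 for Col3a1, with edgeR, DESeq2 or limma-voom. In both of these fits the lone WT library is assumed to vary like the KO libraries.

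The promoter window of Col3a1 is shown because the gene had the most negative log2 fold change of the family. The 250 bases before its start come from RefSeq (GRCm38.p6, chr1:45311288-45311537, plus strand). Both strands were searched for the TATA motif (TATAA), for the CCAAT box (the letters CCAAT) and for the GC box (GGGCGG), and capitals mark the matches. On the strand of the gene the TATA motif begins 117 bases before the start. The match on the opposite strand overlaps it, and its base farthest from the start lies 118 bases before the start.
Col3a1 promoter: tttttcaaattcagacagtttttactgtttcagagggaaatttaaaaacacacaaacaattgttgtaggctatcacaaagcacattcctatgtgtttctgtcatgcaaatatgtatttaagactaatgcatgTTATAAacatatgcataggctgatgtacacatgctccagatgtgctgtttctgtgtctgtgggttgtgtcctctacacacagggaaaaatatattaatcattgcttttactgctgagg
Neither CCAAT nor GGGCGG is in these letters. RefSeq windows were matched for 34 of the 43 genes, 37 windows in all, and TATAA was in 6 of the 37, CCAAT in 13 and GGGCGG in 22. Over all 32851 windows of that length the shares were 22.8% for TATAA, 33.8% for CCAAT and 32.7% for GGGCGG.

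The type 5 collagens, which start fibrils and set their width, followed a different course. Col5a1 had 613 (WT 1), 190 (WT 4), 228 (KO 5) and 215 (KO 6) counts, so only WT 1 was high (log2 fold change -0.80, SE 0.47). Col5a2 had 841, 416, 532 and 352 counts (log2 fold change -0.46, SE 0.32), and the KO libraries lay on either side of WT 4. Col5a3, a minor chain, was scarce at 10 to 18 counts, with both KO libraries below both WT libraries (log2 fold change -0.62, SE 0.43). Col5a2 and Col3a1 lie tail to tail on chromosome 1 with 24.6 kb between them, and their log2 fold changes were -0.46 and -3.31.

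The fibrillar collagens known from cartilage were not high in WT 1. Col11a1, which shares fibrils with type 2 collagen, had 688 (WT 1), 629 (WT 4), 571 (KO 5) and 662 (KO 6) counts (log2 fold change -0.04). Its partner Col11a2 had 491, 426, 438 and 411 counts (log2 fold change -0.06), and the genotypes overlapped. Col2a1 had 793, 727, 1157 and 651 counts, with KO 5 high and KO 6 low (log2 fold change 0.28, SE 0.22). The median log2 ratio of WT 1 over WT 4 was 0.07 for types 2 and 11, and 2.68 for types 1 and 3. Of the 12 gene symbols listed as markers of cartilage, not all distinct genes, 4 were in both tables. Their summed level was 2.59 and 2.88 CPM in WT and 3.82 and 4.19 CPM in KO. Acan, the main proteoglycan of cartilage, had no count in WT 1 and 5 to 7 counts elsewhere.

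Among the type 4 collagens, 5 of 5 tested genes were highest in WT 1, and the other 3 libraries lay close together. Col4a1 (ENSMUSG00000031502, chromosome 8, 11198423 to 11312826, minus strand) had 4182 (WT 1), 1687 (WT 4), 1769 (KO 5) and 1630 (KO 6) counts. Col4a2 had 3002, 1340, 1464 and 1289 counts. Both KO libraries were thus near WT 4 in both genes, and the log2 fold changes were -0.73 (SE 0.36) and -0.60 (SE 0.32).

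The chains of the other type 4 trimers are better known from the kidney, eye and smooth muscle. Col4a5 had 524 counts in WT 1 and 201 to 223 in the other libraries, and Col4a6 had 229 in WT 1 and 76 to 93 in the others. Col4a4 was the only tested type 4 gene with both KO libraries below both WT libraries, at 73, 51, 44 and 47 counts (log2 fold change -0.39, SE 0.32). Its partner Col4a3 was below the level needed for the test, at 8, 4, 4 and 1 counts. Within table A the median log2 ratio of the 5 genes was -1.15, and within table B it was 0.09, so the direction differed between the tables.

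**Figure D3:**
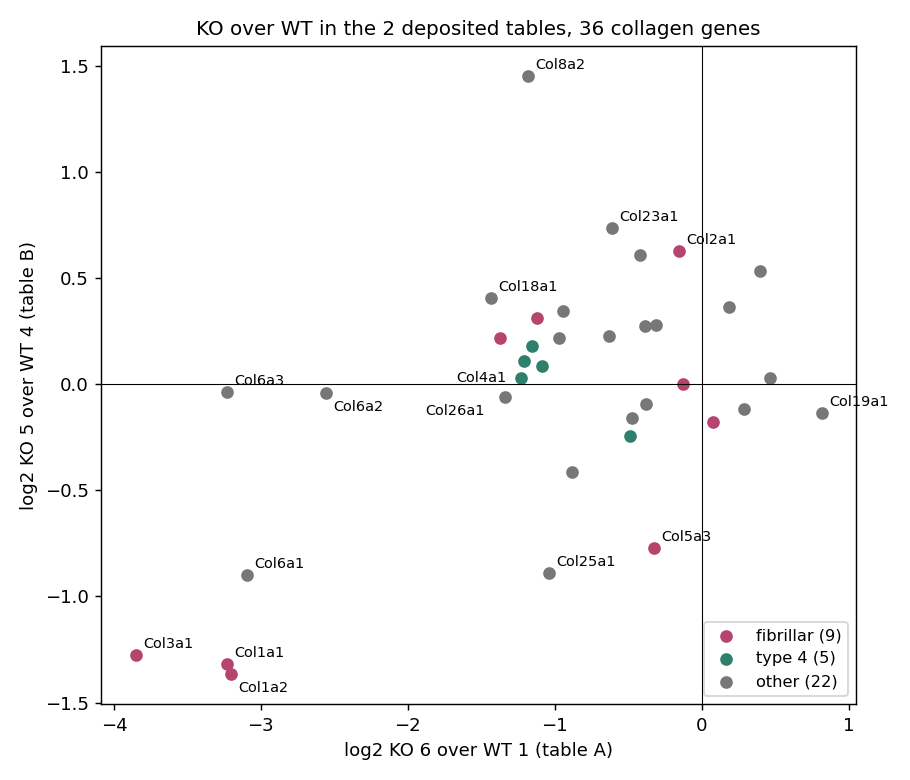
Each point is 1 tested collagen gene; the horizontal axis gives its log2 ratio of KO 6 over WT 1 (table A) and the vertical axis that of KO 5 over WT 4 (table B), with log2 CPM and a prior count of 2. Col1a1, Col1a2 and Col3a1 lie at the lower left in both tables, while the tested type 4 genes lie between -1.23 and -0.49 in table A and near 0 in table B.

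Of the other collagens, type 6 had the most negative values. Col6a1 had 623 (WT 1), 67 (WT 4), 36 (KO 5) and 65 (KO 6) counts (log2 fold change -2.69, SE 0.93). Col6a2 had 455, 68, 68 and 69 counts (log2 fold change -1.86, SE 0.76), and Col6a3, their partner in the usual trimer, had 522, 31, 31 and 49 (log2 fold change -2.71, SE 1.10). In Col6a2 and Col6a3 neither KO library was lower than WT 4 by raw count, and in Col6a1 only KO 5 was clearly lower. The 4 tested type 6 genes had a median log2 ratio of -2.82 within table A and -0.23 within table B. Between the WT libraries, WT 1 over WT 4, the median log2 ratio of the same genes was 2.88.

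Col25a1, a transmembrane collagen of neurons, was lower in KO in both tables. It had 169 (WT 1), 81 (WT 4), 44 (KO 5) and 74 (KO 6) counts, with a log2 fold change of -1.02 (SE 0.44), -1.04 within table A and -0.89 within table B. Both KO libraries were below both WT libraries, KO 6 only just below WT 4. Col28a1, a scarce collagen known from peripheral nerve, had 32, 24, 23 and 22 counts, so its KO values were next to WT 4.

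The multiplexins, collagens of the outer basement membrane zone, differed from each other. Col18a1, whose end fragment is endostatin, had 1010 (WT 1), 353 (WT 4), 482 (KO 5) and 340 (KO 6) counts (log2 fold change -0.68, SE 0.43). Col15a1 had 368, 367, 385 and 464 counts (log2 fold change 0.26, SE 0.16), with both KO libraries above both WT libraries. The same order was seen in Col20a1, a fibril-associated collagen with 37, 35, 53 and 45 counts (log2 fold change 0.49, SE 0.30).

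The remaining fibril-associated collagens, which sit on the surface of fibrils, showed no common direction. The median log2 fold change of the 9 genes of this kind was 0.09, with 4 lower and 5 higher in KO. Col9a3 had 755, 762, 722 and 841 counts in WT 1, WT 4, KO 5 and KO 6, and Col12a1 had 534, 397, 494 and 373. Col9a3 shares 234 exon bases with Tcfl5, a protein-coding gene on the opposite strand. As no source used here says whether counting used strand, reads of the pair cannot be told apart.

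Further genes were high in WT 1 alone. Col26a1 had 491 counts in WT 1 and 153 to 176 in the other libraries (log2 fold change -0.91, SE 0.47). Col22a1, a collagen of tissue junctions, had 382 in WT 1 and 159 to 208 elsewhere, and Col7a1, which forms anchoring fibrils, had 197 in WT 1 and 90 to 108 elsewhere. Col6a5 was scarce at 8 to 26 counts, with a log2 fold change of -0.82 (SE 0.57). In 27 of the 36 tested genes (75.0%) WT 1 was the highest library, next to 27.9% of all tested genes, and in 19 (52.8%) it was more than 2-fold above WT 4, next to 4.66% of all genes.

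Of the 7 collagen genes left without a test, 5 were in both tables at few counts. They were Col4a3, Col6a4 (17, 1, 4 and 5 counts), Col8a1 (9, 6, 13 and 6), Col24a1 (8, 16, 8 and 7) and Col17a1 (5, 28, 9 and 3). Col17a1, a collagen of the hemidesmosomes of the epidermis, was highest in WT 4, the library in which the 6 measured markers of epidermis summed to 216.0 CPM, against 19.7 to 21.7 CPM in the others. The part of these cells in the value was not tested. Col6a6 and Col13a1 were in table A only.

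The summed level of the 41 genes was 1373 (WT 1), 581 (WT 4), 594 (KO 5) and 588 (KO 6) CPM. Types 1 and 3 together made up 26.2% of all collagen counts in WT 1 (95% exact binomial interval 25.7% to 26.8%) and 9.97% in WT 4 (9.39% to 10.6%). In KO 5 they made up 3.86% (3.50% to 4.25%) and in KO 6 5.52% (5.07% to 5.99%). Both KO shares were below both WT shares, and the libraries of 1 genotype also differed by more than counting error. Type 4 held a nearly constant share, with 32.9%, 33.98%, 34.5% and 34.3% in WT 1, WT 4, KO 5 and KO 6. Type 6 made up 6.73% in WT 1 and 1.41% to 2.10% in the other libraries, in which WT 4 (1.80%) lay between the KO libraries.

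**Figure D4:**
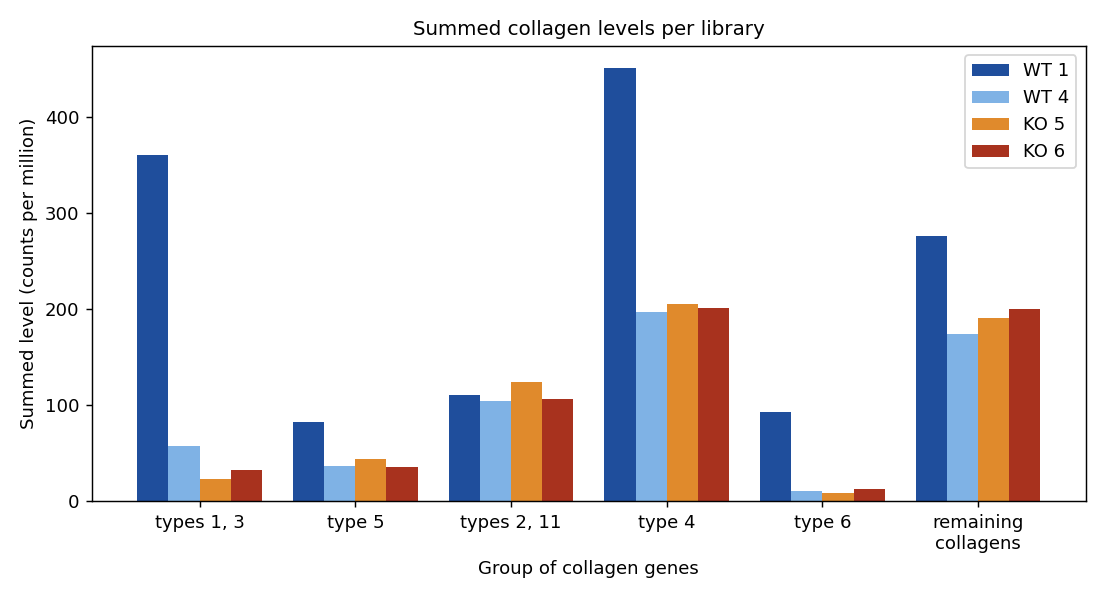
Bars give the summed level in CPM (vertical axis, from 0) of 6 groups of collagen genes in each library. For types 1 and 3 both WT bars exceed both KO bars, and for types 4 and 6 the WT 1 bar alone stands above the rest.

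The balance of chains that share a trimer was compared within each library, where depth cancels out. For Col4a1 to Col4a2 the ratio of counts was 1.39 (WT 1), 1.26 (WT 4), 1.21 (KO 5) and 1.26 (KO 6), although the levels differed by more than 2-fold. The 2 genes lie head to head and share 22 exon bases. For Col11a1 to Col11a2 the ratio lay between 1.30 and 1.61, and for Col4a5 to Col4a6, a pair on the X chromosome with 1.3 kb between their starts, between 2.22 and 2.64.

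Type 1 collagen behaved otherwise. The ratio of Col1a1 to Col1a2 was 0.677 (95% exact binomial interval 0.633 to 0.724) in WT 1 and 0.664 (0.532 to 0.825) in KO 6. In WT 4 it was 1.20 (1.03 to 1.40) and in KO 5 it was 1.25 (0.979 to 1.59). This ratio was alike within a deposited table and not within a genotype, and the intervals of table A did not overlap those of table B. Col5a1 to Col5a2 also grouped by table, with table A the higher, at 0.729 in WT 1 and 0.611 in KO 6 against 0.457 in WT 4 and 0.429 in KO 5. Col6a3 to Col6a2 grouped likewise, at 1.15 and 0.710 against 0.456 and 0.456, and in both pairs the intervals overlapped between the tables. Col6a1 to Col6a2 did not group by table, at 1.37 (WT 1), 0.985 (WT 4), 0.529 (KO 5) and 0.942 (KO 6). Of the type 9 chains, Col9a2 had 0.160 counts per count of Col9a3 in WT 1 and 0.0928 to 0.0958 in the others.

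**Figure D5:**
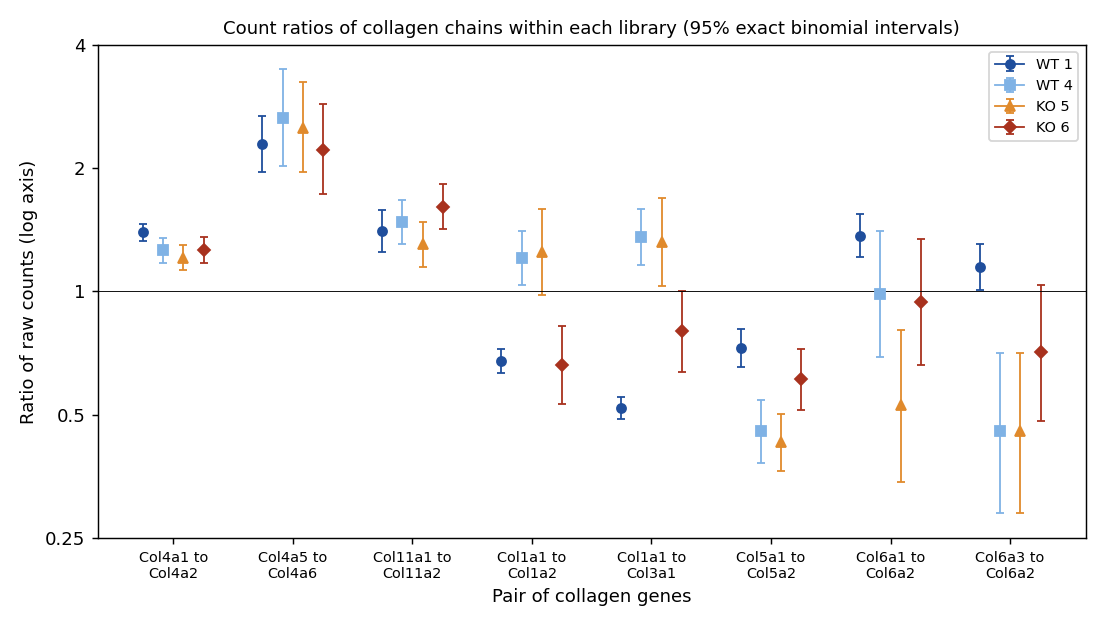
Points give the ratio of raw counts of 2 collagen genes within a library on a log axis, and bars the 95% exact binomial interval, which covers counting error only. The ratio of Col1a1 to Col1a2 is near 0.67 in WT 1 and KO 6 and at 1.20 and 1.25 in WT 4 and KO 5, while that of Col4a1 to Col4a2 stays between 1.21 and 1.39.

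Marker genes of cells that make collagen were mostly highest in WT 1, as were 27 of the 36 tested collagen genes. All 16 markers of meningeal fibroblasts, a list without collagens, were highest in WT 1, and their summed level was 218 (WT 1), 30.5 (WT 4), 24.4 (KO 5) and 49.4 (KO 6) CPM, with none at 0. Slc6a13 had 448, 3, 4 and 52 counts and Aldh1a2, an enzyme of retinoic acid synthesis, had 370, 9, 3 and 23. Dcn, of the same list, had 769, 95, 40 and 68, so KO 6 was not above WT 4 in every marker. Among the 12 tested markers, both KO libraries lay below both WT libraries in 4 and above them in 0, beside 11.9% and 11.5% of all tested genes. Without WT 1 the order of the list was not that of types 1 and 3, since KO 6 exceeded WT 4 in the sum. Endothelial markers summed to 298 CPM in WT 1 and 176 to 189 in the other libraries, with 11 of 12 highest in WT 1. Pericyte markers summed to 316 CPM in WT 1 and 188 to 216 in the others, with 11 of 12 highest there. The part of these cells in the collagen values was not tested, and in bulk tissue fewer cells of a type and less RNA per cell cannot be told apart. Markers of bone summed to 11.5 to 14.8 CPM and of skeletal muscle to 5.08 to 7.89 CPM. Those of choroid plexus grouped by deposited table, at 18.6 (WT 1) and 19.5 (KO 6) CPM against 5.46 (WT 4) and 6.79 (KO 5).

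The machinery that makes, shapes and reads collagen was followed in 6 lists, and none of their 78 tested genes passed edgeR's test in all 4 libraries. Taking the table as a block, edgeR called 2 of the 78 lower, Lum (adjusted p = 0.00819) and Dcn (adjusted p = 0.0343). In that fit 0.165% of all tested genes were called lower. Of the 18 tested enzymes of hydroxylation and folding, 10 had lower and 8 higher means in KO, with a median log2 fold change of -0.02. Serpinh1, the collagen chaperone HSP47, had 2479, 1531, 1667 and 1271 counts in WT 1, WT 4, KO 5 and KO 6 (log2 fold change -0.40). Of the 12 tested genes of secretion and processing, 7 were lower and 5 higher (median -0.03). Pcolce, which speeds the removal of the C-terminal propeptide, had 150, 54, 28 and 36 counts (log2 fold change -1.61), and its relative Pcolce2 had 12, 13, 31 and 20 (1.06). Adamts2, the protease of the N-terminal propeptide, had 205, 232, 284 and 308 counts (0.48). Neither KO library overlapped the WT libraries in Pcolce (KO lower) or in Pcolce2 and Adamts2 (KO higher), and none of these genes passed the test. Both KO libraries thus lay below both WT libraries in 1 of the 12 genes and above them in 2, beside 11.9% and 11.5% of all tested genes.

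Of the 14 tested genes of crosslinking and fibril organisation, 12 were lower and 2 higher (median -0.56), with a median of -0.99 within table A and -0.23 within table B, and of 0.04 for KO 6 over WT 4. The fibril-binding proteoglycans Dcn (769, 95, 40 and 68 counts) and Lum (244, 42, 8 and 23) had both KO libraries below both WT libraries, with log2 fold changes of -2.92 and -3.12, in the order of types 1 and 3. They are also 2 of the 16 meningeal markers. Bgn, another such proteoglycan, had 852, 352, 302 and 208 counts (-1.19), also with both KO libraries below both WT libraries. The crosslinking enzyme Lox had 311, 33, 26 and 44 (-2.21), high in WT 1 alone. In the list, both KO libraries lay below both WT libraries in 4 of the 14 genes and above them in 1, beside 11.9% and 11.5% of all tested genes.

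Of the 10 tested receptors, 8 were lower and 2 higher (median -0.14), with a median of -0.41 within table A and 0.13 within table B, so that the lower medians of receptors, collagenases and basement membrane partners held only for the table with WT 1. Adgrg1, the receptor of type 3 collagen, had 4244, 4780, 5285 and 3484 counts, with the KO libraries on either side of both WT libraries (log2 fold change -0.01, SE 0.18). The collagen-binding integrin chain Itga11 had 104, 30, 34 and 29 counts, high in WT 1 alone. Of the 8 tested collagenases and inhibitors, 7 were lower and 1 higher (median -0.41), with a median of -0.55 within table A and 0.09 within table B. The gelatinase Mmp2 had 209, 87, 101 and 94 counts, high in WT 1 alone. Both KO libraries lay below both WT libraries by CPM in Mmp9, Ctsk and Reck, 3 of the 8 genes, beside 11.9% of all genes. Their counts were 150, 137, 74 and 127 (Mmp9), 116, 24, 24 and 22 (Ctsk), and 448, 347, 319 and 293 (Reck). In 1 gene of the list both KO libraries lay above both WT libraries, beside 11.5% of all genes. Of the 16 tested partners of type 4 collagen in the basement membrane, 13 were lower and 3 higher (median -0.31), with a median of -0.77 within table A and 0.18 within table B. Nid2, which links laminin to type 4 collagen, had 667, 171, 197 and 185 counts (-1.07). Frem1, of the epithelial basement membrane, had 148, 72, 56 and 43 counts (-1.10), both KO libraries below both WT libraries. It was the only one of the 16 in that order, and 1 had the reverse, beside 11.9% and 11.5% of all genes.

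Across the 36 collagen genes, the log2 ratios of table A and table B, which share no library, had a Pearson r of 0.522 and a Spearman rho of 0.241, given as a description over genes that are not independent of each other. Over all tested genes the Pearson r was 0.013. The ratios within genotypes, WT 1 over WT 4 and KO 6 over KO 5, also share no library. Across the same 36 genes they had a Pearson r of 0.41 and a Spearman rho of 0.205, with a Pearson r of 0.224 over all tested genes. KO was lower in both tables in 14 of the 36 genes (38.9%, beside 22.9% of all tested genes) and higher in both in 3 (8.3%, beside 22.3%). The sign differed in 19 (52.8%), close to the 54.9% of all tested genes. In the authors' deposited table A, 19 of 43 collagen genes were called lower (adjusted p under 0.05 and at least 2-fold), where 3.59% of all its genes were. In the authors' deposited table B, 4 of 41 were called lower, where 1.6% of all its genes were. Col1a1, Col1a2 and Col3a1 were called in both, and Col17a1 in table B. No collagen gene was called higher by the authors in either deposited table, and each of these calls compares 1 library with 1 library.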

How the data were processed

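RNA-seq of E16 cortex was analysed in 2 WT and 2 Cd93 KO libraries. The authors deposited gene-level whole counts (Ensembl identifiers, per the file headers) in 2 tables of 1 library per genotype. HTSeq 0.6.0, TopHat2 2.0.12, Bowtie2 2.2.3 and the build mm9 are named, without roles, in the submitters' processing notes. Whether counting used strand is not given in the sources used here. Gene positions in the tables are those of GRCm38, where 92.2% of 23279 genes have the start and end of GENCODE M21. The deposited log2 fold changes and the deposited adjusted p-values compare 1 library with 1 library, per the file headers, and were used only where the authors' table is named. There were 0 value columns without a sample.

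Counts of genes in both tables were fitted in R 4.3.3 with edgeR 4.0.16 (TMM, factors 0.994 to 1.012, filterByExpr, quasi-likelihood test, two-sided, Benjamini-Hochberg adjusted p of 0.05, no covariate). CPM values are TMM-scaled, ± gives the SD over 2 libraries, and within-table ratios were taken on log2 CPM after adding a prior count of 2. Alternatives were DESeq2 size factors, no low-count filter, DESeq2 1.42.0, limma-voom (limma 3.58.1), the deposited table as a block and leaving out each library. Tables and plots were made with matplotlib 3.10.9, scipy 1.17.1 and pandas 2.3.3 in Python 3.11.15. Tested on simulated counts of KO against WT over 16155 genes, edgeR called 200 of 200 genes changed 4-fold. That share does not carry over to the measured counts. There Cd93 was 5.00-fold higher in WT, with adjusted p = 0.211 in edgeR's quasi-likelihood test. Col3a1 was 9.92-fold higher in WT, with adjusted p = 0.9999 in the same test. How often a 4-fold change would be called in collagens with the WT spread seen here was not tested.

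The members and gene lists were chosen with earlier results of these data known. The lists were 6 of collagen-related genes and markers of 9 tissues or cell types. The genes chosen by rule, 53 in all, were Cd93, each tested fibrillar and type 4 gene, and the 10 other collagens of smallest p. To these were added the 5 of highest level per length and collagens called by an alternative. Up to 4 genes of smallest p per collagen-related list, Adgrg1 and Serpinh1 completed the set. Some of the set are given no values of their own above. Collagens and marker genes named beyond these, the latter Slc6a13, Aldh1a2 and Acan, were chosen after their values were seen. Runs of glycine codons and exon lengths were counted in the GENCODE coding sequence of 1 transcript per gene.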

Additional observations from a re-analysis of the deposited data

Results flagged for a closer look

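Both results below come from genes listed in 1 deposited table only, which therefore entered no comparison. Each table lists a gene only where its 2 libraries together hold at least 2 counts. Col13a1, a transmembrane collagen of neuromuscular junctions and other cell contacts, had 76 counts in WT 1 and 8 counts in KO 6, both above the floor of 3 counts. The authors' deposited table A gives a log2 fold change of -3.14 for it, and table B does not list it. Col6a6, an additional type 6 chain, had 4 counts in WT 1 and 3 counts in KO 6, and only the first is above the floor.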

How the results depend on the processing

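Of the 53 genes chosen by rule, 23 had the other sign in the log2 fold change without WT 1. The other sign was seen in 2 without KO 5, 2 without KO 6 and 1 without WT 4. None had it under DESeq2 size factors, the fit without the low-count filter, DESeq2, limma-voom or the table block. Over the fits that left out 1 library, the log2 fold changes of the 23 ranged as follows: Col11a2 -0.13 to 0.0091, Col5a2 -0.85 to 0.093, Col5a1 -1.39 to 0.24, Col4a6 -1.25 to 0.28, Col4a5 -1.21 to 0.11, Col4a1 -1.22 to 0.024, Col4a2 -1.05 to 0.051, Col6a3 -3.61 to 0.39, Col6a2 -2.65 to 0.026, Col26a1 -1.49 to 0.10, Col18a1 -1.22 to 0.23, Col7a1 -0.91 to 0.16, Col16a1 -0.35 to 0.32, Col22a1 -0.90 to 0.30, Fkbp10 -0.83 to 0.13, Creb3l1 -0.71 to 0.028, Lox -3.06 to 0.11, Itga11 -1.64 to 0.083, Itgb1 -0.30 to 0.003, Mrc2 -0.79 to 0.26, Mmp2 -1.02 to 0.18, Nid2 -1.72 to 0.17 and Lama1 -1.14 to 0.099. The ranges of the others were Col2a1 -0.12 to 0.60, Col11a1 -0.21 to 0.11, Col9a3 -0.077 to 0.25 and Adgrg1 -0.27 to 0.22. Col1a1, Col1a2 and Col3a1 stayed below 0 in every fit and within-table ratio run, from -3.23 to -1.32 for Col1a1, -3.58 to -0.89 for Col1a2 and -4.16 to -0.92 for Col3a1. Over all genes 2 were called in all 4 libraries, 8 by DESeq2, 29 with the table as a block and 5 to 312 with 1 library left out. Of the collagen genes 0 were called in all 4 libraries, 3 with the table block and 0 to 16 with 1 library left out. The cause of these shifts was not tested. The genotypes share no replicate numbers in the labels, so the only pairing fitted was that of the deposited tables, each with 1 library per genotype. Genes with under about 10 counts in most libraries, such as Col4a3 and Col6a4, were too shallow to compare.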

Other observations

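Collagen genes that lie next to each other on a chromosome did not share one pattern. Col6a2 and Col6a1 lie 85.2 kb apart on chromosome 10 in the same direction, with log2 fold changes of KO over WT of -1.86 and -2.69, and Col18a1 follows 326.0 kb further at -0.68. Col9a1 and Col19a1 lie tail to tail on chromosome 1 with 9.2 kb between them, at 0.17 and 0.39. Col9a3 and Col20a1 lie 364.3 kb apart on chromosome 2, at 0.09 and 0.49. Col4a6 and Col4a5, head to head on the X chromosome, had -0.68 and -0.70. None of these genes passed edgeR's test in all 4 libraries.

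Between the KO libraries, the median log2 ratio of KO 6 over KO 5 was 0.66 for types 1 and 3, 0.66 for type 6 and 0.03 for the 9 fibrillar genes together, beside 0.0053 over all tested genes. Col8a2, a short-chain collagen of endothelial basement membranes of the cornea, was lowest in WT 4, at 3 counts, with 30 in WT 1 and 12 and 11 in the KO libraries.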
